A study of Aspergillus nidulans with 48 samples.

Results

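The menadione response of the ΔatfB mutant of Aspergillus nidulans was examined in mycelia from untreated surface cultures and from surface cultures grown on menadione sodium bisulfite (MSB). All mycelium libraries of this strain were used, 3 MSB-treated and 3 untreated, which are 6 of the 48 RNA-seq libraries of the series and 6 of its 24 mycelium libraries. The ΔatfB strain is labelled as a DAtfB mutant, a deletion of the gene for the bZIP transcription factor AtfB, and atfA is not named as deleted. Mycelia of the control strain THS30.3 (the reference strain of the labels, with both genes in place) and of the ΔatfAΔatfB double mutant served for comparison, again with 3 untreated and 3 MSB-treated libraries each. Cultures of all these groups grew on Barratt's agar plates at 37 °C, and the treated plates contained MSB at 0.04 mM (the unit is written Mm in the labels). The study describes biological replicates collected before conidiophores appeared and gives the ages of the mycelial cultures only as a range, so a difference in age between the groups was not tested. The genotype label of the double mutant names atfB in both places, and the strain was taken from the sample titles. Whether the mutant is represented by more than a single transformant is not stated in the sources used here, and the mycelium libraries share a batch label, batch 3.

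Menadione is a quinone that is reduced and reoxidised inside the cell, and this redox cycling generates superoxide. Superoxide dismutases convert superoxide to hydrogen peroxide, and catalases, peroxidases and the thioredoxin and glutathione systems remove the peroxide. In aspergilli the bZIP proteins AtfA and AtfB belong to the ATF/CREB family, and AtfA acts downstream of the stress-activated MAP kinase HogA (SakA) and is needed for tolerance of oxidative stress and for stress-resistant conidia.

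The 6 libraries held between 15981895 and 36314359 counted reads, and the 3 MSB libraries (15981895 to 23390254) were shallower than the 3 untreated libraries (26109806 to 36314359). Levels are given as RPKM, reads per kilobase of gene model scaled to sequencing depth, in the order of replicates 1, 2 and 3. Changes are log2 fold changes of MSB over untreated with their standard error (SE), from edgeR's quasi-likelihood test over 9199 genes, and a gene was called where its Benjamini-Hochberg adjusted p was below 0.05 and its log2 fold change was beyond 1 in either direction. These p-values measure the spread between libraries of a group. Pearson's r between libraries (log2 RPKM) was 0.987 to 0.992 within the untreated group, 0.976 to 0.984 within the MSB group and 0.930 to 0.960 between the groups.

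The gene labelled as deleted was checked first. In the untreated ΔatfB libraries atfB (AN8643) stood at 0.666, 0.86 and 0.787 RPKM, and on MSB it stood at 1.23, 0.496 and 0.743 RPKM, from 15 to 51 reads a library. The control strain had a mean of 3.28 RPKM untreated and 1.46 RPKM on MSB, so reads remained at the atfB locus in the mutant and the gap to the control was narrow on MSB. The change with MSB in the mutant was 0.12 ± 0.27 (SE, n = 3 against 3, edgeR adjusted p = 0.746), and its sign was negative (-0.26) when MSB replicate 1 was left out. The levels of AN6798 were 0.204, 0.0599 and 0.132 RPKM untreated and 0.234, 0.0945 and 0.274 RPKM on MSB in the ΔatfB strain, against control means of 48.4 and 54.2 RPKM. AN6798 therefore nearly lacked reads in this strain as well, whereas the double mutant kept it, at 46.8, 46 and 47.3 RPKM untreated and 59.8, 65.6 and 62.3 RPKM on MSB. The related factor atfA (AN2911) was present, at 49.3, 60.1 and 51.6 RPKM untreated and 107.80, 70.4 and 42.7 RPKM on MSB, a change of 0.50 ± 0.20 (edgeR adjusted p = 0.0509) that did not pass the test and whose groups overlapped.

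MSB changed a broad set of genes in ΔatfB mycelia, in both directions and by similar amounts. Of the 9199 genes tested, 616 were raised (6.70%) and 647 were lowered (7.03%), and the median over all genes was -0.01. The median size of a called change was 1.51 among the raised and -1.68 among the lowered genes. Changes of more than 4-fold were seen in 172 raised and 224 lowered genes, and 26 raised and 13 lowered genes changed more than 16-fold. The 3 libraries of either group lay wholly on opposite sides in 573 of the 616 raised and 628 of the 647 lowered genes. Since the genes were called on these same libraries, this separation is not independent support. Its share over all 9199 genes was not counted, and with 3 against 3 libraries an exact permutation test cannot go below p = 0.1.

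Most of this response was also present in the control strain, where 558 genes were raised (6.07%) and 729 were lowered (7.92%) by the same test. Raised in both strains were 339 genes, which is 55.03% of those raised in ΔatfB and 60.8% of those raised in the control. Lowered in both were 459 genes, or 70.9% and 62.96%. Opposite calls were rare, with 7 genes raised and 4 lowered in ΔatfB that were called the other way in the control. Genes called in ΔatfB had control medians of 1.17 (raised) and -1.66 (lowered). In the opposite direction, the genes called in the control had ΔatfB medians of 1.33 and -1.35, and the 3 single MSB libraries gave 1.29, 1.27 and 0.978 for the raised set and -1.34, -1.37 and -1.31 for the lowered set. MSB replicate 3 therefore showed the smallest rise of the 3 libraries.

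**Figure D1:**
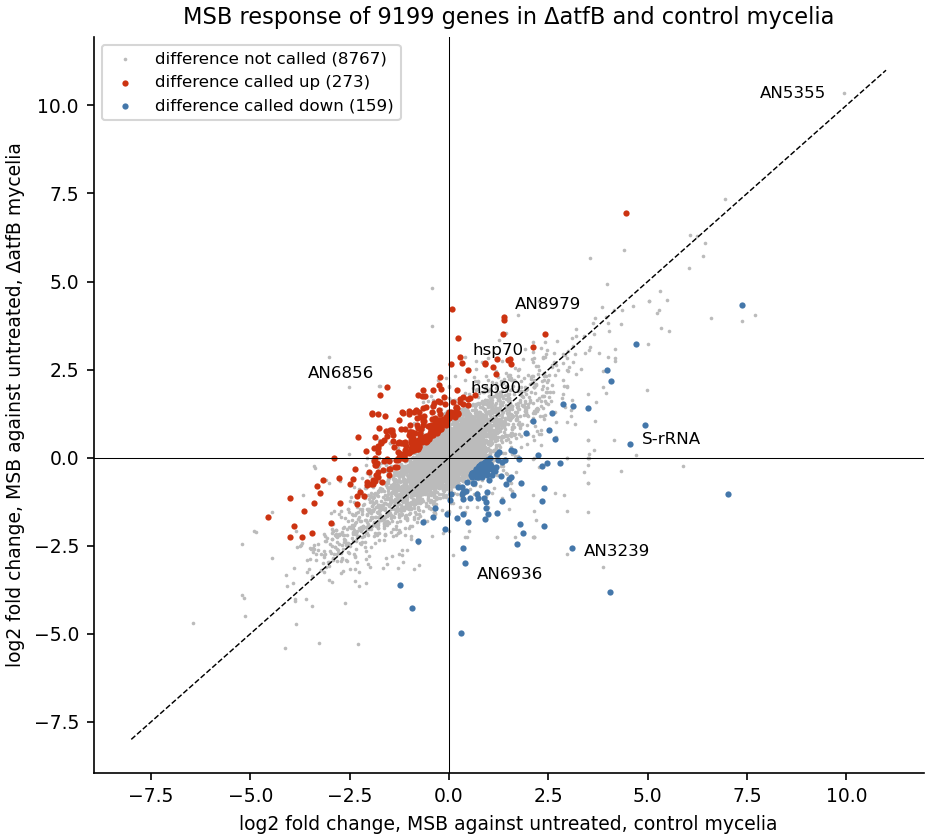
MSB response of each of the 9199 genes tested in the control strain (x axis) and in ΔatfB (y axis), both as log2 fold change of MSB over untreated mycelia, with a dashed line of equal response. Red points are the 273 genes with a more positive response in ΔatfB, blue points the 159 with a more negative one, and the remaining 8767 are grey and lie mostly along the line.

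The steepest rise belonged to a pair of neighbouring genes that were almost silent without MSB. AN5355, with predicted oxidoreductase and acyl-transferase domains, had 2, 1 and 0 reads in the untreated libraries and 1025, 961 and 694 reads on MSB, that is 58, 51.3 and 26.9 RPKM. The ratio over the summed reads was 1414 (95% exact interval 483 to 6862, counting error only). Its neighbour AN5354, described with the same domains, rose from 0.405, 0.36 and 0.238 RPKM to 60.3, 56.6 and 39.5 RPKM, a change of 7.34 ± 0.29 (edgeR adjusted p = 3.89e-13). In both genes every MSB library stood far above every untreated library, and both rose as steeply in the control strain (9.93 and 6.95).

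Several genes without a name in the sources used here followed. AN5228 rose from 2.31, 2.82 and 2.69 RPKM to 256, 223 and 119 RPKM (6.29 ± 0.51, edgeR adjusted p = 7.78e-09). AN5368 rose from 2.49, 3.41 and 3.07 RPKM to 243, 208 and 154 RPKM (6.11 ± 0.34). AN9345 (6.31 ± 0.29), AN7518 (5.72 ± 0.69), AN2039 (4.45 ± 0.31) and AN7233 (3.99 ± 0.28) also rose in every MSB library. Within the MSB group AN7518 was uneven, at 18.5, 13.8 and 4.87 RPKM, with replicate 3 the lowest.

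AN5019, which has a predicted homocysteine methyltransferase domain and a possible role in methionine synthesis, had the tightest response among these genes. It stood at 4.68, 4.76 and 4.99 RPKM untreated and at 80.6, 90.5 and 86.2 RPKM on MSB, a change of 4.19 ± 0.11 (edgeR adjusted p = 1.59e-16), and the control changed by 4.14. AN11094, a putative zinc-binding oxidoreductase whose protein is described as menadione stress-induced, rose from 1.45, 1.67 and 1.55 RPKM to 34.3, 31.5 and 22.3 RPKM (4.27 ± 0.25). AN5943 rose from 1.07, 1.23 and 1.41 RPKM to 18.4, 20.7 and 23.6 RPKM (4.11 ± 0.27). No untreated library of these genes reached the lowest MSB library.

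**Figure D2:**
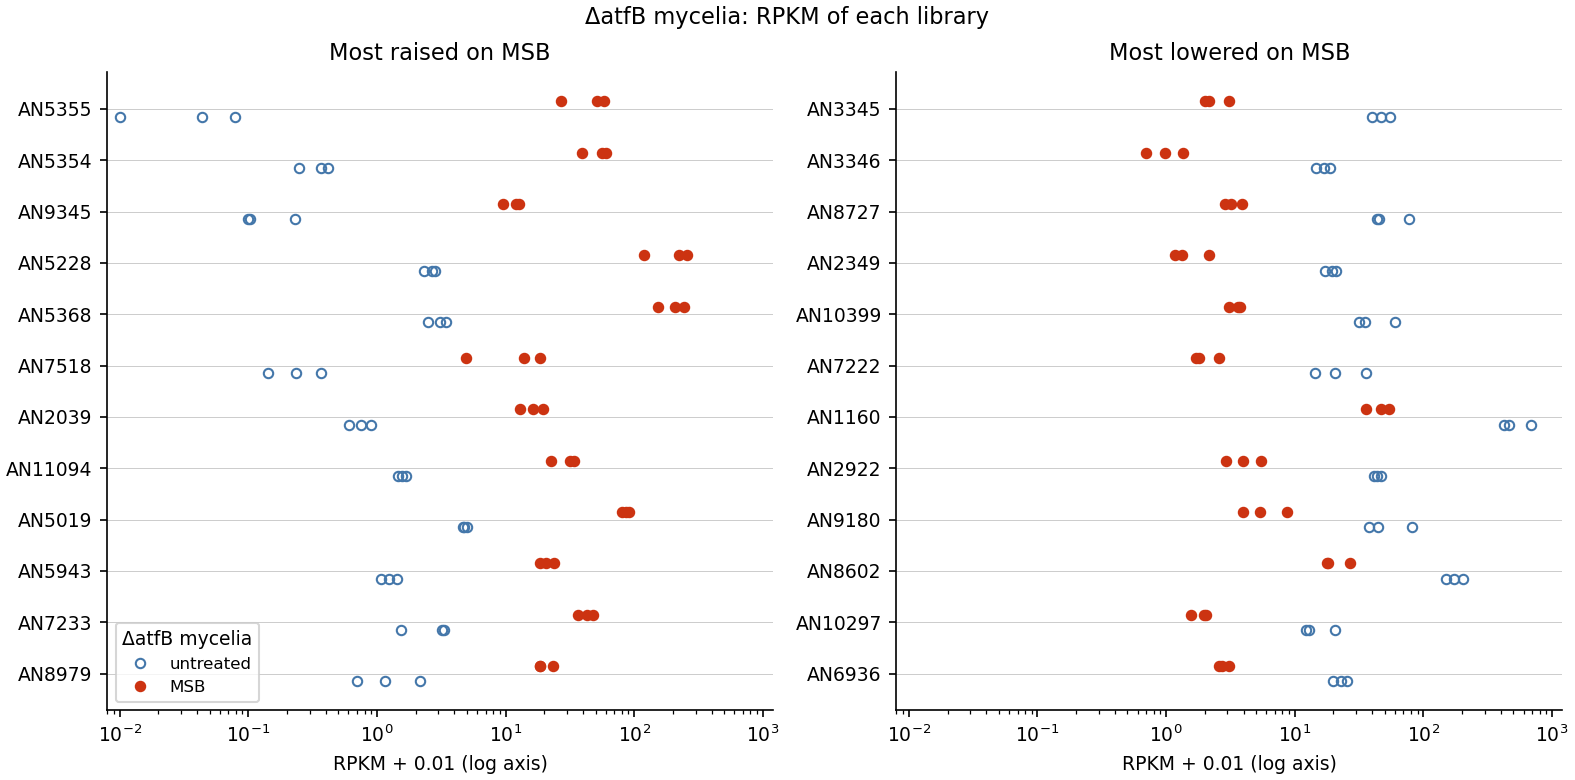
Levels in each ΔatfB library (RPKM + 0.01, log axis) of the 12 most raised and 12 most lowered genes with a group mean of at least 10 RPKM. Open blue points are the 3 untreated and filled red points the 3 MSB libraries, and the groups do not overlap in any of the 24 genes, which the rule of choice required.

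Among the genes lowered most, the neighbours AN3345 and AN3346 fell together. AN3345 fell from 54.7, 46.7 and 39.5 RPKM to 2.15, 1.99 and 3.08 RPKM (-4.22 ± 0.42, edgeR adjusted p = 1.27e-07), and AN3346 from 18.8, 17 and 14.5 RPKM to 1.34, 0.687 and 0.97 RPKM (-4.03 ± 0.42). AN8727 fell from 77.1, 43.7 and 45.4 RPKM to 2.86, 3.16 and 3.87 RPKM (-4.01 ± 0.39). The control strain lowered the same 3 genes, by 3.46, 3.60 and 3.89 on the log2 scale.

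AN1160 was the most abundant of the 12 lowered genes, with 690, 423 and 465 RPKM untreated and 35.5, 46.4 and 54.4 RPKM on MSB (-3.49 ± 0.31). AN9180, a putative transketolase whose protein is described as decreased by menadione, fell from 81, 37.8 and 44.2 RPKM to 8.74, 5.34 and 3.93 RPKM (-3.14 ± 0.33, edgeR adjusted p = 2.27e-07). The predicted oxidoreductase AN10399 fell by 3.57 ± 0.52, AN7222, a NACHT domain protein with a nitrate-induced transcript, by 3.49 ± 0.32, and the NRPS-like gene AN10297 by 2.99 ± 0.24 on the log2 scale. Untreated replicate 1 had the highest level in AN8727, AN1160, AN9180, AN10399, AN7222 and AN10297, and each of these stayed called without it.

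The enzymes that remove superoxide and peroxide answered in part. Of the 36 antioxidative enzyme genes tested, 10 rose (27.8%, beside 6.70% of all genes), 1 fell and 25 were not called. The median was 0.54 against -0.01 over all genes. In the control strain 10 rose and 5 fell, with a median of 0.02.

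The peroxiredoxin gene prxA (AN8692) was the most abundant of them, with 581, 585 and 580 RPKM untreated and 4630, 4660 and 3720 RPKM on MSB (2.94 ± 0.19, edgeR adjusted p = 2.99e-10). The glutathione peroxidase gene gpxA (AN2846) rose from 54.2, 52.6 and 52.3 RPKM to 461, 447 and 273 RPKM (2.93 ± 0.26). The hyphal catalase gene catB (AN9339) rose from 195, 154 and 168 RPKM to 1283, 1154 and 843 RPKM (2.71 ± 0.26). MSB replicate 3 was the lowest treated library in all 3 genes and still lay far above the untreated ones.

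The cytochrome c peroxidase gene ccp1 (AN10220) rose from 156, 160 and 154 RPKM to 1120, 1030 and 833 RPKM (2.71 ± 0.22, edgeR adjusted p = 7.57e-09), and AN5440 from 9.27, 12.5 and 12.7 RPKM to 83.5, 79.3 and 70.5 RPKM (2.79 ± 0.23). The protein of ccp1 is described as decreased by menadione, and its transcript rose here in every library. The thioredoxin reductase gene trxR (AN3581) rose from 293, 286 and 318 RPKM to 1357, 1255 and 831 RPKM (1.98 ± 0.25), and the thioredoxin gene trxA (AN0170) rose by 1.04 ± 0.14, close to the fold limit, which it missed (1.00) when MSB replicate 1 was left out. The catalase gene catC (AN5918, 1.20), the glutathione S-transferase gene gstA (AN4905, 1.22) and AN5831 (1.84) complete the raised members.

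Superoxide dismutase transcripts did not take part to that degree. The Cu,Zn superoxide dismutase gene sodA (AN0241) stood at 1097, 991 and 959 RPKM untreated and at 1678, 1547 and 1511 RPKM on MSB, so the groups did not overlap, but its change of 0.68 ± 0.10 (edgeR adjusted p = 1.25e-05) was below the fold limit. The manganese superoxide dismutase gene sodB (AN5577) had a change of -0.30, the conidial catalase gene catA (AN8637) of -0.45 and the glutathione reductase gene glrA (AN0932) of 0.64, and none was called. The only lowered member was AN3255 (-1.95 ± 0.24), which fell from 12.6, 7.12 and 7.68 RPKM to 2.38, 2.25 and 2.24 RPKM and also belongs to a secondary metabolite cluster. Of all 36 genes, the difference between the ΔatfB and control responses was called for AN10379 alone (1.32, edgeR adjusted p = 0.00463). Over all genes 2.97% had a called difference in that direction. For 4 of the 36 genes a difference was called when control MSB replicate 2 was left out.

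Heat shock genes rose on MSB in ΔatfB and were not called in the control. Heat shock proteins are chaperones that keep other proteins folded. Of the 6 listed genes 5 rose (83.3%, beside 6.70% of all genes), none fell, and the median was 1.63. This list was chosen with earlier results of these data known. In the control strain 0 of the 6 were called by edgeR, 0 had an unadjusted p below 0.05, DESeq2 and limma also called 0, and the median was 0.17. The difference between the strains was itself called for hsp70 and hsp90, 2 of the 6, beside 2.97% of all genes called more positive.

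The hsp70 gene (AN5129) stood at 87.7, 90.5 and 83.9 RPKM untreated and at 530, 564 and 548 RPKM on MSB, a change of 2.69 ± 0.38 (edgeR adjusted p = 9.64e-06). Both groups were tight. Control mycelia had 110, 102.44 and 95.7 RPKM untreated and 115, 185 and 72 RPKM on MSB, and the responses differed by 2.37 ± 0.51 (edgeR adjusted p = 0.00391). The hsp90 gene (AN8269) rose from 85.4, 84.8 and 87.3 RPKM to 218, 256 and 278 RPKM (1.58 ± 0.28), against control levels of 97.5, 92.3 and 94.8 RPKM untreated and 113.36, 135 and 85.4 RPKM on MSB. Its difference from the control response was 1.30 ± 0.38 (edgeR adjusted p = 0.0227) and lost the call without control MSB replicate 3 (1.16, adjusted p = 0.064).

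The other chaperones were less even. The disaggregase gene hsp104 (AN0858) had 15.7, 16.2 and 13.1 RPKM untreated and 54.6, 33.8 and 14.1 RPKM on MSB, so replicate 3 lay within the untreated range, and the change of 1.23 ± 0.35 fell to 0.70 without MSB replicate 1. The small heat shock gene AN7892 had the same pattern (4.05, 3.12 and 1.39 RPKM against 17.5, 7.6 and 1.62 RPKM, 1.68 ± 0.58), with 0.71 without MSB replicate 1 and 1.34 (not called) without untreated replicate 3. AN5781, a putative heat shock protein, was above the untreated range in every MSB library (17.2, 35.8 and 19.2 RPKM against 8.81, 5.52 and 4.76 RPKM, 1.96 ± 0.55). Without MSB replicate 1 the list had 3 raised genes. The listed gene hsp30 (AN2530) had a change of -0.06 and was not called.

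Of 10 listed genes of acetate use, ethanol use and gluconeogenesis 5 rose (50%), 1 fell (10%) and 4 were not called, with a median of 1.02. The shares over all genes were 6.70% and 7.03%. In the control 1 of the 10 rose and 1 fell. The isocitrate lyase gene acuD (AN5634) and the malate synthase gene acuE (AN6653) encode the enzymes of the glyoxylate cycle. Levels of acuD went from 3.42, 4.26 and 3.58 RPKM to 17.3, 12.6 and 10.2 RPKM (1.87 ± 0.28, edgeR adjusted p = 1.83e-05) and those of acuE from 22.7, 16.5 and 17.4 RPKM to 59.1, 56.3 and 34.6 RPKM (1.45 ± 0.27). The gene for phosphoenolpyruvate carboxykinase, acuF (AN1918), rose from 7.61, 7.86 and 6.72 RPKM to 19.4, 18 and 13.2 RPKM (1.23 ± 0.26). Replicate 3 was the lowest MSB library of all 3 genes and remained above the untreated range.

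The aldehyde dehydrogenase gene aldA (AN0554) rose from 128, 138 and 143 RPKM to 310, 281 and 313 RPKM (1.18 ± 0.09, edgeR adjusted p = 2.56e-09). AN8979 rose most, from 1.14, 2.17 and 0.687 RPKM to 18.6, 18.4 and 23.5 RPKM (3.99 ± 0.31, edgeR adjusted p = 4.29e-09), about 16-fold. Control mycelia raised it to 4.6, 5.63 and 4.77 RPKM from 2.31, 2.24 and 1.42 RPKM, and the difference between the responses was 2.60 ± 0.43 (edgeR adjusted p = 0.000697). The pyruvate decarboxylase gene pdcA (AN4888) was the lowered member (36.7, 20.2 and 25.2 RPKM against 19.6, 10.8 and 7.26 RPKM, -1.08 ± 0.36), and its call was lost without untreated replicate 1 (-0.82), MSB replicate 2 (-0.99) or MSB replicate 3 (-0.80). The difference of acuE from its control response (1.27 ± 0.38, edgeR adjusted p = 0.0241) was lost in 6 of the fits that left out 1 library, with adjusted p between 0.057 and 0.068.

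In glycolysis, the TCA cycle and respiration edgeR called 0 of 15, 0 of 33 and 0 of 26 genes tested, and DESeq2 and limma also called 0. At an unadjusted p below 0.05, without the fold limit, 7, 25 and 13 of these genes passed, beside 4784 of all 9199 genes. Of these shares only that of the TCA cycle was above the share over all genes. The list medians were 0.11, 0.34 and 0.27. In the pentose-phosphate shunt AN9180 was the only called gene of 10. Of 12 tested ribose metabolism genes 1 rose (8.33%) and 2 fell (16.7%), beside 6.70% and 7.03% of all genes. The putative ribulokinase gene AN1568 rose from 0.642, 0.627 and 0.714 RPKM to 3.45, 3.83 and 3.56 RPKM (2.48 ± 0.22). The 2 lowered genes included the putative ribose-5-phosphate isomerase gene AN5907, which fell from 410, 280 and 272 RPKM to 135, 121 and 126 RPKM (-1.29 ± 0.20). The protein of AN5907 is described as menadione stress-induced. In the control its transcript fell by 2.74, and the difference of 1.44 ± 0.29 was called (edgeR adjusted p = 0.00219).

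Among trehalose and polyol genes 1 of 9 rose and 1 fell (11.1% each, beside 6.70% and 7.03% of all genes), while 4 fell in the control. The acid trehalase gene treA (AN9340) had 48.2, 50.4 and 48.5 RPKM untreated and 183, 110.92 and 59.3 RPKM on MSB (1.30 ± 0.27), and without MSB replicate 1 its change was 0.83. AN8639, a putative trehalose-phosphate synthase, fell from 22, 8.64 and 12 RPKM to 8.25, 4.26 and 2.13 RPKM (-1.51 ± 0.39). The putative mannitol 2-dehydrogenase gene AN7590 stood at 144, 74 and 102.50 RPKM and at 156, 92.4 and 58.8 RPKM, a change of -0.02 where the control changed by -1.86. For 4 of the 9, AN8639, AN7590, AN5975 and treA, a more positive difference from the control was called (1.26 to 2.25), beside 2.97% of all genes. Without MSB replicate 1, 2 of these 4 calls remained (treA 0.78 and AN8639 1.53, not called). The treA difference was also lost without untreated replicate 3, control untreated replicate 2 or control MSB replicate 3 (1.03 to 1.26). All 9 genes were highest in MSB replicate 1 and lowest in MSB replicate 3. In the control MSB group all 9 were highest in replicate 2 and lowest in replicate 3.

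Light-induced genes varied by library in the same way. The list holds cryA, a cryptochrome gene, and 9 of the 15 genes that the study's table of genes dependent on AtfA or AtfB describes as light-induced, and since that table was drawn up on these samples, the directions are not independent evidence. In ΔatfB 2 fell (20%, beside 7.03% of all genes) and none rose, with a median of 0.34. By contrast, 9 of the 10 fell in the control, with a median of -1.60. The difference was called for 6 of the 10, all more positive in ΔatfB, beside 2.97% of all genes. It was called for only 1 when MSB replicate 1 was left out and for 4 without control MSB replicate 1 or 3. Without MSB replicate 3, 3 members were called up in ΔatfB. Over all 14 tested genes with that description 2 rose and 2 fell in ΔatfB, 1 rose and 11 fell in the control, and all 14 were highest in MSB replicate 1 and lowest in MSB replicate 3.

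The level of AN5056 was 242, 108.64 and 134 RPKM untreated and 506, 210 and 80.5 RPKM on MSB, so the MSB libraries spanned the untreated range. The control fell from 642, 673 and 551 RPKM to 134, 334 and 130 RPKM, without overlap. Every 1 of the 10 genes was highest in MSB replicate 1 and lowest in MSB replicate 3, and 9 of 10 were highest in untreated replicate 1. In the control MSB group 9 of the 10 were highest in replicate 2 and all were lowest in replicate 3. The part of this library order in the difference between strains was tested only by leaving libraries out. The called members ccgA (AN9285) and cetJ (AN8638) fell from 2260, 874 and 1343 RPKM to 529, 274 and 167 RPKM (-2.16 ± 0.40) and from 7.29, 1.84 and 1.88 RPKM to 1.47, 0.595 and 0.575 RPKM (-2.03 ± 0.58). The call of cetJ was lost without untreated replicate 1 (-1.09). The cryptochrome gene cryA (AN0387) had 18.5, 21.5 and 19.6 RPKM untreated and 44.2, 26.1 and 18.4 RPKM on MSB and was not called (0.61).

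Of 9 genes of the HOG pathway, which relays osmotic and oxidative stress to HogA, edgeR, DESeq2 and limma called 0. An unadjusted p below 0.05 was reached by 5 of the 9, beside 4784 of all 9199 genes. All 5 of them also had an adjusted p below 0.05, with changes within the fold limit. The kinase gene hogA (AN1017) stood at 160, 177 and 154 RPKM untreated and at 406, 261 and 151 RPKM on MSB (0.78 ± 0.21, edgeR adjusted p = 0.00482), below the fold limit and overlapping through MSB replicate 3. Of 18 phosphorelay genes 2 rose (11.1%, beside 6.70% of all genes). The histidine kinase genes hk-8-3 (AN6820) and hk-8-2 (AN4113) rose by 1.93 ± 0.45 and 1.76 ± 0.53. Their MSB levels were 20.1, 7.84 and 2.32 RPKM and 47.4, 17.6 and 4.55 RPKM, and the changes without MSB replicate 1 were 0.92 and 0.68, no longer called. Among 13 iron genes edgeR, DESeq2 and limma called 0, and 5 had an unadjusted p below 0.05, a lower share than over all genes. The largest changes there were the 0.87 of sidI (AN0609), a siderophore synthesis gene, and the -0.84 of mirB (AN8540), a siderophore transporter gene.

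Of 19 iron-sulfur cluster assembly genes 4 rose (21.1%, beside 6.70% of all genes) and none fell, with a median of 0.42, and in the control 1 rose. The gene nar1 (AN3632) rose from 19.6, 18.9 and 18.3 RPKM to 57.4, 54.7 and 43.7 RPKM (1.495 ± 0.17, edgeR adjusted p = 5.58e-07). In Saccharomyces cerevisiae NAR1 and NBP35 act in cytosolic and ISA1 in mitochondrial iron-sulfur assembly. The others were isa1 (AN10237, 1.10), AN8485 (1.05) and nbp35 (AN2155, 1.02), all close to the fold limit, and without MSB replicate 1 the changes of isa1 (0.88) and nbp35 (0.93) were no longer called. The call of nbp35 was also lost without untreated replicate 3 (0.99) or MSB replicate 2 (0.94).

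Of 7 nitrate and nitric oxide genes 1 rose (14.3%) and 2 fell (28.6%), beside 6.70% and 7.03% of all genes. The flavohemoglobin gene fhbA (AN7169), whose product detoxifies nitric oxide, rose from 42.8, 32 and 40.3 RPKM to 264, 299 and 281 RPKM (2.92 ± 0.17, edgeR adjusted p = 6.54e-11). The second flavohemoglobin gene fhbB (AN3522) had 60, 29 and 57 reads untreated and 0, 1 and 1 on MSB, a ratio of 46.1 of untreated over MSB (95% exact interval 12.5 to 384, counting error only). AN2470 fell from 5.67, 1.95 and 2.43 RPKM to 0.334, 0.21 and 0.228 RPKM (-3.65 ± 0.43). The nitrate transporter, nitrite reductase and nitrate reductase genes crnA (AN1008), niiA (AN1007) and niaD (AN1006) had changes of 0.88, 0.53 and 0.57 and were not called.

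Of the 12 listed regulators of conidiation, 9 were not called. Conidiation in A. nidulans runs through BrlA, AbaA and WetA, and StuA and the Flb proteins act before or beside them. Of 12 such genes 1 rose (8.33%) and 2 fell (16.7%), beside 6.70% and 7.03% of all genes. The central activator gene brlA (AN0973) fell from 71.1, 42.3 and 31.2 RPKM to 7.93, 9.27 and 13.1 RPKM (-2.21 ± 0.34, edgeR adjusted p = 2.69e-05), and stuA (AN5836) from 302, 252 and 283 RPKM to 101.64, 111.46 and 133 RPKM (-1.23 ± 0.18). The gene flbA (AN5893), which encodes a regulator of G protein signalling, rose from 22, 26.8 and 30.6 RPKM to 64.8, 74.5 and 47.6 RPKM (1.27 ± 0.17). The downstream gene abaA (AN0422) had a change of 0.90 ± 0.20 and wetA (AN1937) of -0.03, and neither was called.

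The summed level of 13 markers of conidia and conidiophores, brlA, abaA and wetA among them, was 1242, 605 and 411 RPKM in the untreated and 168, 154 and 217 RPKM in the MSB libraries, and none of the 13 was at 0 in any library. The genes ivoB and rodA made up 78.4% to 88.8% of each sum, and the other 11 markers summed to 138.9, 73.8 and 55.1 RPKM untreated and to 36.3, 29.8 and 29.5 RPKM on MSB. Control conidia gave sums of 24352 to 27722 RPKM over the 13, to which ivoB (0.79 RPKM) added almost nothing, and control mycelia 200 to 446 RPKM untreated and 35.8 to 71.2 RPKM on MSB. Of the 13 genes 6 fell (46.2%, beside 7.03% of all genes), none rose and 7 were not called. Only 2 fell when untreated replicate 1 was left out and 4 without MSB replicate 2. In such bulk RNA, fewer cells of a type and less RNA per cell cannot be told apart, and the part of this marker level in the other changes was not tested.

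The conidiophore pigment gene ivoB (AN0231) fell from 371, 276 and 273 RPKM to 47.2, 60.4 and 107 RPKM (-2.06 ± 0.37, edgeR adjusted p = 0.000135). The spore wall hydrophobin gene rodA (AN8803) had 731, 256 and 83.2 RPKM untreated and 84.1, 64.2 and 80.7 RPKM on MSB (-2.17 ± 0.70), so the groups overlapped, and its call was lost without untreated replicate 1 (-1.12) or MSB replicate 2 (-2.06, adjusted p = 0.059). Of 4 markers of Hülle cells and fruiting bodies the transcription factor gene nosA (AN1848) fell, from 232, 192 and 175 RPKM to 62.1, 85.3 and 96.6 RPKM (-1.26 ± 0.21). The summed level of 4 hyphal markers was 5952 to 6078 RPKM untreated and 7059 to 7309 RPKM on MSB, high in every library, and these 4 include catB, itself raised on MSB.

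**Figure D3:**
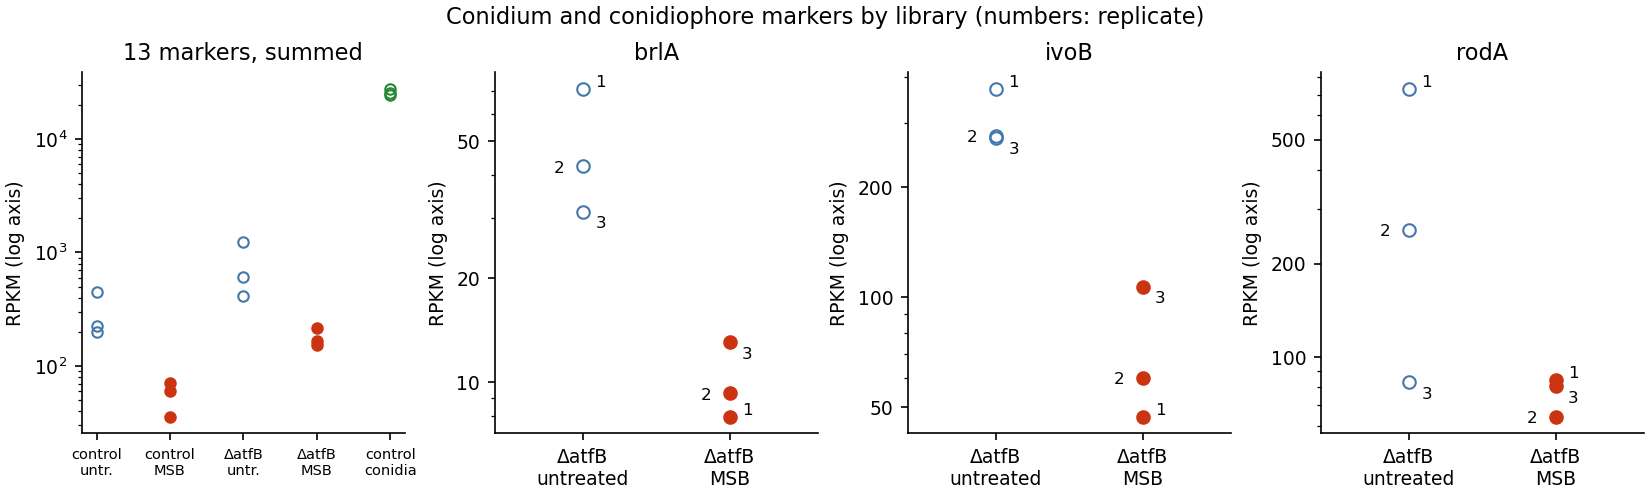
Conidium and conidiophore markers, in RPKM on log axes. The left panel gives the sum over 13 markers in control and ΔatfB mycelia and in control conidia, and the other panels give brlA, ivoB and rodA in the ΔatfB libraries with replicate numbers, where untreated replicate 1 is highest in each and rodA overlaps between the groups.

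Over the clusters together 21 of 241 tested genes rose (8.71%) and 53 fell (21.99%), beside 6.70% and 7.03% of all genes, and 30 rose and 47 fell in the control. The emericellamide cluster fell as a whole, with all 5 genes called and a median of -2.64. Levels of easA (AN2545), the nonribosomal peptide synthetase gene, went from 15.2, 15.6 and 19.6 RPKM to 2.46, 2.55 and 2.87 RPKM (-2.64 ± 0.32, edgeR adjusted p = 1.54e-06), and those of easB (AN2547), the polyketide synthase gene, from 149, 138 and 166 RPKM to 19.6, 22.4 and 24 RPKM (-2.74 ± 0.41). All 5 genes were also lowered in the control.

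The aspercryptin cluster rose instead, with 8 of 13 genes called up (61.5%, beside 6.70% of all genes), none down and a median of 1.36. Its synthetase gene AN7884 stayed at a low level, 0.25, 0.226 and 0.251 RPKM untreated and 0.691, 0.557 and 0.636 RPKM on MSB (1.41 ± 0.25). AN7874 rose from 3.86, 3.91 and 4.11 RPKM to 10.4, 12.3 and 16.4 RPKM (1.76 ± 0.25). AN7877, the most abundant of those named here, stood at 75, 79.4 and 76.8 RPKM and at 63.5, 70.9 and 94 RPKM (0.02), while it fell by 1.26 in the control, a difference of 1.28 ± 0.19 (edgeR adjusted p = 0.000301). In this cluster 9 genes rose and 1 fell in the control.

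Of 3 penicillin genes 2 fell in ΔatfB (66.7%, beside 7.03% of all genes), and in the control edgeR, DESeq2 and limma called 0 of the 3. An unadjusted p below 0.05 was reached by 0 of the 3 in the control, beside 4993 of all 9199 genes. The isopenicillin N synthase gene ipnA (AN2622) went from 10.8, 15.1 and 17.3 RPKM to 2.56, 3.19 and 1.5 RPKM (-2.56 ± 0.47, edgeR adjusted p = 0.000167). Control levels were 13.6, 11.9 and 15.6 RPKM untreated and 11.6, 24.7 and 14.2 RPKM on MSB, above every MSB library of ΔatfB, and the responses differed by -2.91 ± 0.62 (edgeR adjusted p = 0.00365). The ACV synthetase gene acvA (AN2621) was close to the limit of detection, at 0.0982, 0.145 and 0.129 RPKM against 0.0277, 0.0417 and 0.0378 RPKM, with a change of -1.74 ± 0.63 in ΔatfB and a difference of -2.64 ± 0.81 from the control. The change within ΔatfB lost the call when any of the libraries other than untreated replicate 1 was left out (-1.61 to -1.84), and the difference lost it without untreated replicate 2 or 3, MSB replicate 1, control untreated replicate 2 or control MSB replicate 2 or 3 (-2.30 to -2.66). The acyltransferase gene aatA (AN2623) had a change of -0.997 and was not called.

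Smaller sets fell too, where 7.03% of all genes were lowered. All 4 tested genes of the AN2924 cluster fell, among them the neighbours AN2922 (46.7, 43.8 and 41.5 RPKM to 3.94, 2.92 and 5.43 RPKM, -3.36 ± 0.30) and AN2923 (47.2, 47.9 and 46.3 RPKM to 7.72, 7.43 and 9.72 RPKM, -2.46 ± 0.30). The call of AN2924 itself (-1.09) was lost without untreated replicate 1 (-0.71) or MSB replicate 1 (-0.95). Of 7 tested sterigmatocystin genes (26 listed) 4 fell, and of 3 tested microperfuranone genes 2 fell. Of 5 tested genes in the main austinol cluster (10 listed) 4 fell. In the control 5 of these sterigmatocystin, 2 of the microperfuranone and 2 of the austinol genes fell, and 3 of the AN2924 cluster. The austinol genes were highest in untreated replicate 1, for example ausE (AN9246) with 8.65, 2.79 and 1.41 RPKM untreated and 0.383, 0.301 and 0.349 RPKM on MSB (-3.55 ± 0.69). Untreated replicate 1 was also the library with the highest conidiophore markers.

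Carbohydrate-active enzyme genes fell more often than they rose, 50 (17.2%) against 23 (7.90%) of 291, with the same counts in the control. The raised share was close to the 6.70% of all genes, and the lowered share compares with 7.03%. The putative alpha-glucosidase gene agdB (AN8953) fell from 974, 604 and 667 RPKM to 117, 116 and 147 RPKM, and AN8369 and AN8368 by 2.95 ± 0.21 and 2.91 ± 0.19. AN7832 rose from 3.78, 7.19 and 6.82 RPKM to 56.3, 49.1 and 47.4 RPKM (3.13 ± 0.19) and AN8547 from 10.1, 14.5 and 17 RPKM to 99.7, 90.3 and 91.4 RPKM (2.79 ± 0.18). In the control AN8547 rose from a mean of 44.5 to 99.3 RPKM, and the difference was 1.58 ± 0.23 (edgeR adjusted p = 0.000277), the MSB levels being alike and the untreated level lower in ΔatfB.

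Of 326 transcription factor genes 15 rose and 16 fell, close to the shares over all genes. AN3433, a predicted transcription factor, rose most, from 5.19, 6.59 and 7.87 RPKM to 98.3, 73.7 and 40.3 RPKM (3.46), followed by AN7921 (1.85, 1.79 and 1.97 RPKM to 6.85, 7.5 and 7 RPKM, 1.96 ± 0.15). The lowered ones were led by brlA, AN8345 (-1.66 ± 0.20), AN3356 (-1.59 ± 0.17) and dbaA (AN7896, -1.59 ± 0.27). Of the 4 velvet genes only AN2059 was called (-1.10 ± 0.11), which fell from 37.5, 29.4 and 32.5 RPKM to 12.2, 16.1 and 16.8 RPKM and missed the fold limit (-0.97) without MSB replicate 1.

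**Figure D4:**
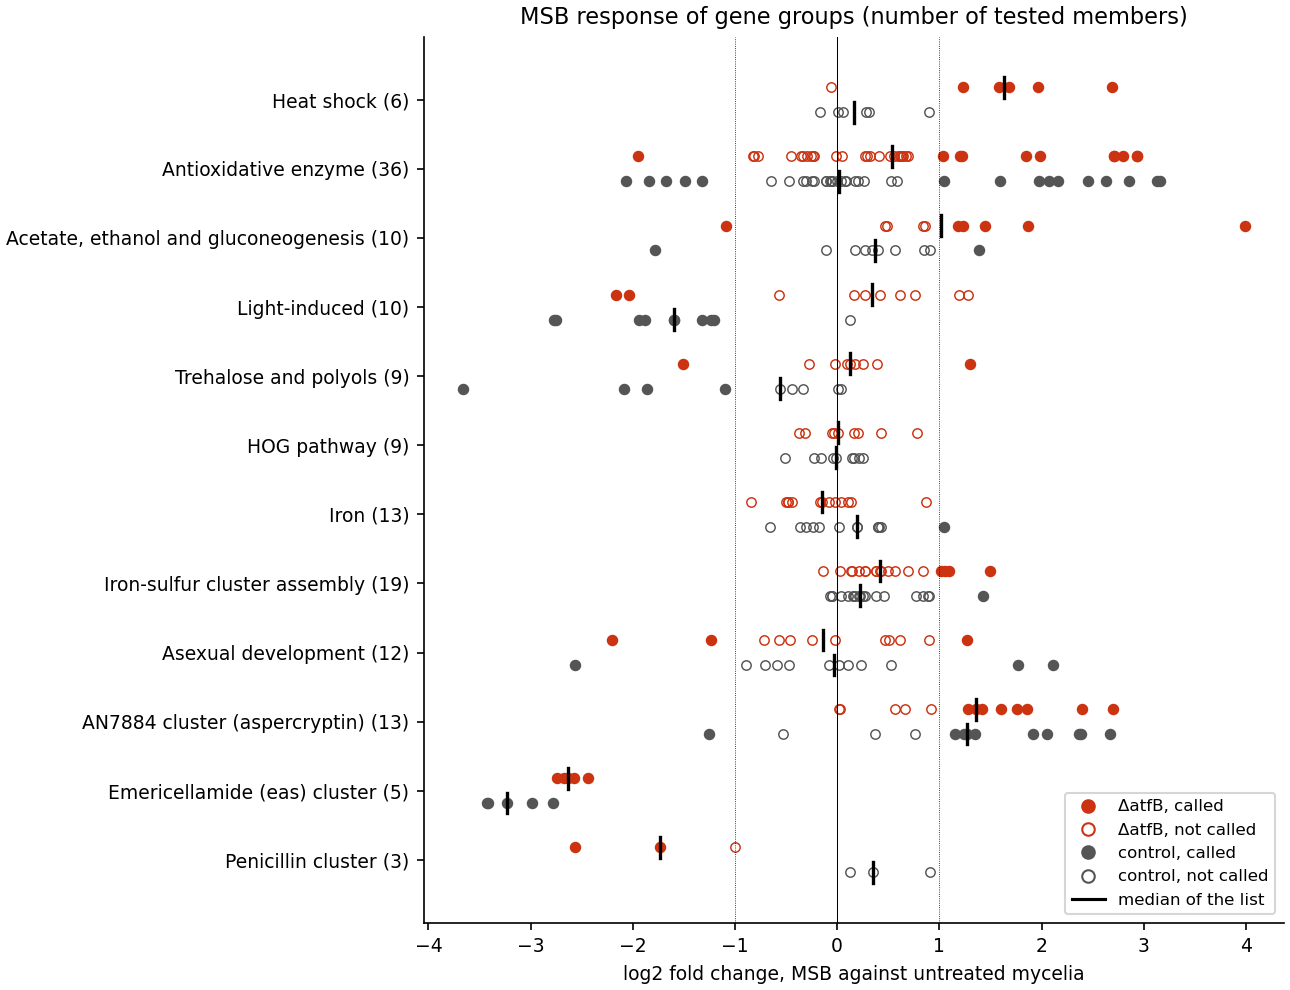
Change on MSB (log2 fold change, x axis) of every tested gene of 12 lists in ΔatfB (red) and control (grey) mycelia. Filled points are called, open points are not, black bars are list medians of each strain and dotted lines mark the fold limit of 1 in each direction. In ΔatfB, heat shock (median 1.63) and aspercryptin (1.36) lie to the right and emericellamide (-2.64) and penicillin (-1.74) to the left.

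The difference between the ΔatfB and control responses was called for 273 genes with a more positive response in ΔatfB (2.97%) and 159 with a more negative one (1.73%). Besides the labelled deletion of atfB, ΔatfB differs from the control at AN6798, which nearly lacked reads in ΔatfB. The parts of these loci in these and the earlier differences from the control cannot be told apart. Among the 273, 93 were raised in ΔatfB, 98 were lowered in the control and 89 were called in neither strain. Their medians were 0.73 in ΔatfB and -0.75 in the control. Of the 273, 179 (65.6%, against 33.1% of all genes) were highest in MSB replicate 1 of ΔatfB and 191 (69.96%, against 34.2%) lowest in MSB replicate 3. In the control MSB group 200 of the 273 (73.3%, against 38.1% of all genes) were highest in replicate 2 and 198 (72.5%, against 42.05%) lowest in replicate 3. The count of 273 became 188 without ΔatfB MSB replicate 1, 368 without ΔatfB MSB replicate 3, 359 without control MSB replicate 2 and 197 without control MSB replicate 3.

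Among genes with a group mean of at least 10 RPKM the most positive differences showed this order in ΔatfB. Larger differences, from -8.06 to 5.87 over all genes whether called or not, belonged to genes below that level. AN6856 had 11.3, 10.3 and 7.94 RPKM untreated and 82.6, 27.7 and 5.69 RPKM on MSB in ΔatfB, where the control fell from 47.9, 43.1 and 30.8 RPKM to 5.61, 27 and 7.34 RPKM. The difference was 3.57 ± 0.82 (edgeR adjusted p = 0.00567). The light-induced gene AN8641 (3.21 ± 0.84) had 14.8, 9.71 and 7.43 RPKM untreated and 53.6, 17.4 and 4.44 RPKM on MSB, and AN7992 (3.18 ± 0.81) had 39.4, 36.2 and 26.4 RPKM and 163, 53.4 and 16.2 RPKM. In each of these genes the MSB libraries of ΔatfB lay on both sides of the untreated ones. AN2404 (3.02), AN5480 (2.89), a putative RNA-binding protein described as menadione stress-induced, and AN0045 (2.79) were similar. Without MSB replicate 1 the differences of AN8641 (1.98), AN7992 (2.01) and AN0045 (1.73) lost the call, as did the rise of AN6856 within ΔatfB (2.01 ± 0.58, and 0.78 without that library).

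Differences in the negative direction mostly came with close replicates in ΔatfB. AN3239 fell in ΔatfB, from 11.5, 9.99 and 6.18 RPKM to 1.46, 1.68 and 1.38 RPKM, and rose in the control, from 1.58, 2.57 and 1.29 RPKM to 19.8, 15.4 and 9.06 RPKM, a difference of -5.65 ± 1.37 (edgeR adjusted p = 0.00747). The groups of either strain did not overlap. Its change within ΔatfB (-2.57 ± 0.99, edgeR adjusted p = 0.0398) was lost in 5 of the 6 fits that left out a ΔatfB library, at -2.39 to -2.65 with adjusted p of 0.072 to 0.099. AN2110 fell from 221, 213 and 162 RPKM to 35.7, 44.7 and 25.8 RPKM and rose in the control from 22.5, 31.2 and 39.4 RPKM to 131, 119 and 43.5 RPKM (difference -4.15 ± 0.83). The predicted monooxygenase gene AN9004 fell from 14.1, 14.6 and 10.9 RPKM to 3.28, 3.41 and 2.06 RPKM and rose in the control from a mean of 3.28 to 11.4 RPKM (difference -4.01 ± 0.92). In these 3 genes every untreated ΔatfB library was above every untreated control library. Every MSB library was below every MSB library of the control for AN3239 and AN9004, and in AN2110 control MSB replicate 3 lay among the ΔatfB values.

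AN6936 (25.4, 22.8 and 19.7 RPKM to 2.7, 3.06 and 2.58 RPKM) fell in ΔatfB and was not called in the control (mean 3.21 to 4.1 RPKM), a difference of -3.37 ± 0.58 (edgeR adjusted p = 0.000853). AN2349 fell by 3.61 ± 0.32 on the log2 scale, from 17.2, 20.9 and 19.6 RPKM to 1.31, 2.15 and 1.16 RPKM, against -1.22 in the control (difference -2.39 ± 0.42). In AN1677 the change within ΔatfB was not called (403, 418 and 396 RPKM to 232, 260 and 162 RPKM, -0.86), but the control rose from 26.6, 31.3 and 24.6 RPKM to 178, 194 and 45.6 RPKM (difference -3.24 ± 0.77). The mitochondrial small-subunit rRNA gene (S-rRNA, AN20048) was the last of these, and its difference of -4.16 ± 1.28 rested on control MSB replicate 3, at 1501 RPKM where the other control MSB libraries had 37.3 and 29.4 RPKM. Without that library it was -0.15.

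**Figure D5:**
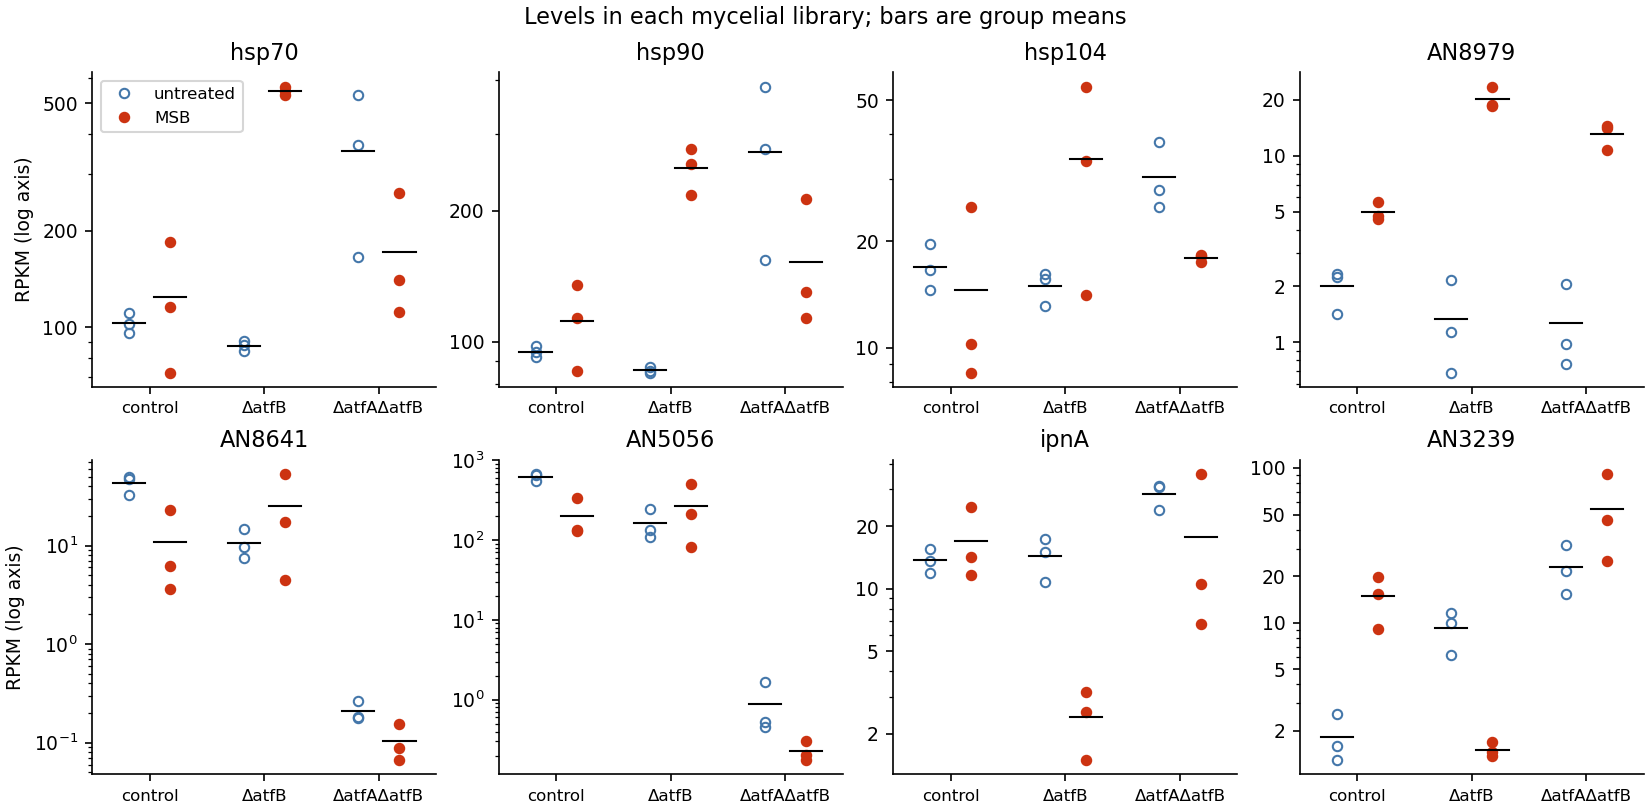
Levels of 8 genes in every library of control, ΔatfB and ΔatfAΔatfB mycelia (RPKM, log axes), untreated in open blue, MSB in filled red, with bars at the group means. In hsp70, hsp90 and AN8979 the ΔatfB libraries on MSB stand above the control ones, in AN8641 and AN5056 they spread across most of the control range, and in ipnA and AN3239 they stand below.

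The double mutant responded differently from ΔatfB in 265 genes with a more positive (2.88%) and 403 with a more negative response (4.38%). The strains differ at atfA, deleted in the double mutant, and also at AN6798, which nearly lacked reads in ΔatfB alone, and the parts of these loci in the differences cannot be told apart. This comparison uses the same ΔatfB libraries as the previous one. In the heat shock list 5 of 6 genes had a more negative response, with a median of -2.53, and 3 did without double mutant untreated replicate 2. The double mutant had hsp70 at 371, 531 and 166 RPKM untreated and 262, 140 and 111.22 RPKM on MSB, a change of -1.07 ± 0.36, and the difference from the ΔatfB change was -3.76 ± 0.52 (edgeR adjusted p = 7.08e-05). All 3 untreated libraries of the double mutant were above those of ΔatfB (87.7, 90.5 and 83.9 RPKM). Of the 13 aspercryptin genes 10 had a more negative response in the double mutant.

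Among the 403 genes with a more negative response in the double mutant 150 were raised and 47 lowered in ΔatfB. Of the 4 most negative with a group mean of at least 10 RPKM, 3 fell on MSB in both strains and further in the double mutant. The ivoB gene fell in the double mutant from 209, 101.53 and 195 RPKM to 0.509, 1.86 and 0.522 RPKM, a difference of -5.48 ± 0.64 from the ΔatfB change (edgeR adjusted p = 1.33e-05). The arabinanase gene abnC (AN8007) fell from 69.5, 46.7 and 57.4 RPKM to 0.393, 1.29 and 0.394 RPKM, while ΔatfB kept 27.9, 28.8 and 35.9 RPKM of 79.6, 71.5 and 53.1 RPKM (difference -5.37 ± 0.47), a fall of 1.10 within ΔatfB on the log2 scale that missed the fold limit (-0.98) without untreated replicate 1. The putative hydrophobin gene AN6401 kept 149, 195 and 257 RPKM of 913, 710 and 709 RPKM in ΔatfB and fell to 2.96, 8.32 and 1.23 RPKM in the double mutant (difference -5.08 ± 0.67). ΔatfB mycelia therefore retained at least part of these transcripts in every MSB library.

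AN6869, a predicted hydrolase of carbon-nitrogen bonds, moved in opposite directions. It rose in ΔatfB from 50, 80 and 85.7 RPKM to 705, 731 and 775 RPKM (3.39 ± 0.29, edgeR adjusted p = 1.60e-08) and fell in the double mutant from 165, 216 and 218 RPKM to 69, 56.2 and 34.5 RPKM, a difference of -5.32 ± 0.40. The control rose as ΔatfB did (3.09). In the positive direction AN9180 (difference 3.77 ± 0.85) was near 0 in the double mutant in both conditions, at 0.0734 to 0.328 RPKM. AN7217, of unknown function, fell in ΔatfB from 139, 75.5 and 90.5 RPKM to 15.6, 14.4 and 14.9 RPKM and stayed at 7.16 to 10.2 RPKM in the double mutant (difference 3.00 ± 0.39). AN3239 had a difference of 3.78 ± 1.27 (edgeR adjusted p = 0.0416) that was lost in 9 of the 12 fits without 1 library of either strain. AN1899 rose in ΔatfB from 1.46, 0.329 and 0.222 RPKM to 10.8, 9.38 and 8.68 RPKM (3.96 ± 0.57) and more steeply in the double mutant, to 97.2, 40 and 36.8 RPKM, and this difference (3.69 ± 1.00) lost the call without untreated replicate 1 of ΔatfB (2.47).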

How the data were processed

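Total RNA from lyophilized mycelia was made into TruSeq libraries and sequenced as single reads. Per the labels and the study's methods the authors checked reads with FastQC, aligned them with HISAT2 2.1.0 to the FGSC A4 genome, deposited raw read counts per gene, and deposited RPKM values computed with edgeR. The authors tested expression with DESeq2 1.24.0. The counting tool, its annotation and its use of strand are not given in the sources used here, so reads of overlapping or antisense genes cannot be told apart. The counts of 10988 genes were used as deposited.

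A gene was tested with at least 0.5 RPKM in at least 3 of the 24 mycelium libraries. Counts were fitted in edgeR 4.0.16 (R 4.3.3) with RLE factors and 1 mean per group over all 24 libraries, by the quasi-likelihood test, and p-values were adjusted over all 9199 genes. The SE was the log2 fold change divided by the square root of F. A difference between responses was an interaction contrast in the same fit. Scripts were tested on simulated data. Alternatives were TMM or no factors, DESeq2 1.42.0, limma 3.58.1 on log2(RPKM + 0.1) and log2(RPKM + 1), no filter and 5 RPKM, no fold limit, the compared libraries alone, a replicate block and leaving out each library.

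Genes were named by rule: atfA, atfB and AN6798; the 12 most raised and 12 most lowered called genes without overlap of groups and with a group mean of at least 10 RPKM; up to 6 called members of each list, and every described member of the development, HOG, antioxidant, iron and heat shock lists; the 6 most positive and 6 most negative called differences from the control, with a mean of at least 10 RPKM in a group compared; and by the same limit the 4 of each sign from the double mutant. Other genes given values, such as agdB, AN2924, AN7877 and members that were not called, were chosen after their values were seen. Members and lists were chosen with earlier results of these data known. Neighbouring genes were taken from RefSeq gene order. Reads are PCR products without molecular identifiers, so counting intervals cover counting error only.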

Additional observations from a re-analysis of the deposited data

Results flagged for a closer look

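These results were singled out because the MSB response differed between strains by edgeR's interaction test, on the log2 scale. More positive in ΔatfB than in the control were the chaperone genes hsp70 (2.37) and hsp90 (1.30), AN8979 (2.60), acuE (1.27), treA (1.26), AN8639 (2.15), AN7590 (1.84), AN5975 (2.25), the antioxidant gene AN10379 (1.32), the aspercryptin gene AN7877 (1.28) and atfB (1.23), the gene labelled as deleted. The light-induced genes AN0045 (2.79), AN0693 (2.20), AN5004 (2.15), AN5056 (2.35), AN8339 (1.62) and AN8641 (3.21) and the genes AN2404 (3.02), AN5480 (2.89), AN6856 (3.57) and AN7992 (3.18) were each highest in MSB replicate 1 and lowest in MSB replicate 3 of the ΔatfB group.

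More negative in ΔatfB than in the control were the penicillin genes ipnA (-2.91) and acvA (-2.64), and AN3239 (-5.65), AN2110 (-4.15), AN9004 (-4.01), AN6936 (-3.37), AN1677 (-3.24), AN2349 (-2.39) and the mitochondrial rRNA gene S-rRNA (-4.16), which rested on 1 control library. Between the double mutant and ΔatfB the response was more negative in the double mutant for ivoB (-5.48), abnC (-5.37), AN6869 (-5.32) and AN6401 (-5.08) and more positive for AN3239 (3.78), AN9180 (3.77), AN1899 (3.69) and AN7217 (3.00).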

How the results depend on the processing

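The counts of raised and lowered genes in ΔatfB, 616 and 647, were 2154 and 2006 with no fold limit, 352 and 430 with limma on log2(RPKM + 1), and 379 lowered genes passed at 5 RPKM. The differences from the control, 273 and 159, became 946 and 712 with no fold limit, and those of the double mutant from ΔatfB, 265 and 403, became 733 and 1042, with 147 more positive ones at 5 RPKM and 242 more negative ones with limma on log2(RPKM + 1). Leaving out each library in turn gave 517 to 748 raised and 534 to 676 lowered genes in ΔatfB, 188 to 368 and 115 to 171 differences from the control, and 199 to 265 and 299 to 445 differences of the double mutant. Without both first ΔatfB libraries, an alternative chosen after seeing the data, ΔatfB had 480 raised and 524 lowered genes.

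The change of atfB itself was reversed without MSB replicate 1 (-0.26, range -0.26 to 0.37 over single omissions) and without both first libraries (-0.35); the cause was not tested. Same-numbered untreated and MSB libraries had deviations from their group means correlated at 0.0805, 0.0202 and 0.0249, and not every library correlated best with its own number. These small values over all genes do not decide whether such libraries share more than a number. Most genes with a more positive response in ΔatfB than in the control were highest in replicate 1 of both ΔatfB groups. In each group that share was larger than over all genes. With the replicate block 610 genes were raised and 644 lowered in ΔatfB, 279 and 162 differed from the control and 265 and 385 between the mutants. Depth limits acvA, atfB and other genes with few reads.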

Other observations

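AN6870 and AN6871, which follow AN6869 in the RefSeq gene order and were chosen after their values were seen, moved as AN6869 did. AN6870 rose in ΔatfB mycelia from 3.9, 4.41 and 4.58 RPKM to 26.4, 27.8 and 35.5 RPKM (2.84 ± 0.18, edgeR adjusted p = 2.28e-10) and fell by 1.94 on the log2 scale in the double mutant, a difference of -4.77. AN6871 rose in ΔatfB from 3.16, 2.91 and 3.35 RPKM to 14.9, 19 and 32 RPKM (2.85 ± 0.30) and fell by 2.03 in the double mutant, a difference of -4.88. In both genes every ΔatfB library on MSB lay above every untreated one.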
